A study of Mus musculus with 6 samples.

Results

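The core pluripotency and stemness factors described here are 10 genes: the transcription factors *Pou5f1* (encoding OCT4), *Sox2*, *Nanog* and *Sall4*, the RNA-binding proteins *Lin28a*, *Lin28b* and *Trim71*, and the embryonic stem cell (ESC)-restricted genes *Utf1*, *Dppa4* and *Dppa5a*. They were taken by gene name from a table of 54715 genes. All 10 were found there, and all 10 were among the 16758 genes with enough counts to be tested. Their RNA levels were compared between wild-type (WT) and *Bdh2*-knockout mouse ASCs, 3 libraries each.

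ASCs, or advanced embryonic stem cells, are mouse ESCs held between the naïve and the primed state. Both genotypes came from a cross of a 129/sv female with a GOF/GFP male, so both carried a GFP reporter driven by *Pou5f1* regulatory sequence, and both were grown in activin A, BMP4, CHIR99021 and LIF. The knockout cells were a clone with a frameshift deletion on both alleles near the start codon of *Bdh2*, made with CRISPR/Cas9, so the genotype and the clone cannot be told apart. The labels do not say that replicates were separate cultures, so p-values measure the spread between these samples, which may be technical. *Bdh2*, a cytosolic dehydrogenase gene, had 203, 193 and 209 counts in WT ASCs and 164, 136 and 129 in *Bdh2*-knockout ASCs, and its level in the knockout was 57.7% of WT.

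OCT4, SOX2 and NANOG bind regulatory DNA together and activate each other and many genes of the pluripotent state, and SALL4 is a zinc finger partner of this circuit. LIN28A and LIN28B bind precursors of the let-7 microRNAs and block their maturation, while mature let-7 represses the mRNAs of *Lin28a*, *Lin28b* and *Trim71*, a negative feedback loop well known in stem cells. UTF1 and DPPA4 are chromatin proteins of pluripotent cells, and DPPA5A is a small protein with a KH-like RNA-binding domain found in pluripotent cells and germ cells.

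The let-7 family recognizes its targets through a seed, bases 2 to 8 of the mature microRNA. The 9 mature let-7 and miR-98 sequences of RefSeq (GRCm38.p6) share the seed GAGGUAG. Shown here are 3 of them, from chr13:48538239-48538260 (minus strand), chr9:106178846-106178867 (plus strand) and chrX:151913229-151913250 (plus strand), with the seed in capitals.
mmu-let-7a-5p: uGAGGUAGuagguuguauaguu
mmu-let-7g-5p: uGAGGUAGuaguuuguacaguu
mmu-miR-98-5p: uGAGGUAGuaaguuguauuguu

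The matching letters in a 3′ UTR are CTACCTCA, which pair with the seed and carry an A opposite the first base. In the transcripts of GENCODE M21 (GRCm38), the 3′ UTR of *Trim71* held 4 such sites, that of *Lin28a* held 2, and those of *Lin28b* and *Sall4* held 1 each. The other 6 factors held 0. Only the longest 3′ UTR of each gene was searched, and shorter matches to the seed were not counted. Of 21124 genes with a 3′ UTR, 3.55% held at least 1 site and 7 genes held at least 3. Long UTRs hold more sites by length alone. Among UTRs of similar length the share with a site was 11.7% for *Trim71*, 9.12% for *Lin28b*, 5.62% for *Lin28a* and 3.94% for *Sall4*. Below are the 4 sites of *Trim71* and 1 site of each other gene with the 16 bases before them, all on the minus strand, with the match in capitals. The positions are chr9:114512472-114512495, chr9:114512376-114512399, chr9:114509047-114509070 and chr9:114509021-114509044 for *Trim71*, chr4:134005189-134005212 for *Lin28a*, chr10:45381022-45381045 for *Lin28b* and chr2:168748940-168748963 for *Sall4*.
Trim71 site 1: caacattgcctaagtcCTACCTCA
Trim71 site 2: aagtgataatttctatCTACCTCA
Trim71 site 3: gtttagtatggattttCTACCTCA
Trim71 site 4: tttggcaaaaagttgtCTACCTCA
Lin28a site 1: tgcacagcctgttgaaCTACCTCA
Lin28b site 1: cacccgggcgggaagtCTACCTCA
Sall4 site 1: gagggctttaatttatCTACCTCA
A match of letters is a description and not a measured site. The table lists let-7 hairpin genes with counts of 0 or 1, since libraries of this kind do not measure microRNAs, so let-7 itself was not analysed here.

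Promoter windows, 250 bases before to 50 after a gene's start in RefSeq (GRCm38.p6), were given for 7 of the 10 factors. They were searched on both strands for an octamer core (ATGCAAA), a SOX motif (ACAATG), a GC box (GGGCGG), a nuclear receptor motif (AGGTCA) and an E box (CACGTG). Shown are stretches from the windows of the core trio, chosen after the values of the 3 genes were seen. A link between these motifs and the changes was not tested. All are on the plus strand, at chr17:35505947-35506031 for *Pou5f1*, chr3:34649856-34649942 for *Sox2* and chr6:122707374-122707467 for *Nanog*, with every match to a searched motif in capitals, on whichever strand it reads, and in *Nanog* the base between its pair of motifs too.
Pou5f1: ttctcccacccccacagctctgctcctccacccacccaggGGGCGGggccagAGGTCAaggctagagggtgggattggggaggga
Sox2: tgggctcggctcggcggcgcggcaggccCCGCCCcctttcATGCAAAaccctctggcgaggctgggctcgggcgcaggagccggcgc
Nanog: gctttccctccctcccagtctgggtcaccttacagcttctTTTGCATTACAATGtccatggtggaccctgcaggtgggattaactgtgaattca
The *Nanog* window held an octamer core, read from the other strand as TTTGCAT, and a SOX motif 1 base apart. This pair in this spacing stood in 1 of 27025 promoter windows. The *Nanog* window also held a nuclear receptor motif, at -248 from the start. The *Sox2* window held an octamer core, 2 GC boxes (1 of them in the stretch above, read as CCGCCC) and a nuclear receptor motif (at -244). The *Pou5f1* window held a GC box and a nuclear receptor motif. Thus all 3 windows held a nuclear receptor motif, as 16% of windows do, those of *Pou5f1* and *Sox2* a GC box, as 35.9% do, and those of *Sox2* and *Nanog* an octamer core, as 4.59% do. None of the 3 held an E box.

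The libraries held between 18927748 and 28333541 counts, and 3 counts correspond to 0.106 to 0.158 CPM (the count scaled to a common library size), a limit that covers counting error only and lies far below every factor. The factors together took 0.595% to 0.61% of all counts in every library. Transcripts of 23 adult hepatocyte genes, a set not expected in ASCs, varied within genotypes. Their summed level was 723, 497 and 253 CPM in WT ASCs and 253, 413 and 262 CPM in *Bdh2*-knockout ASCs. Their mean log2 CPM, the hepatocyte score used as a covariate below, was 3.10, 2.47 and -0.10 in WT ASCs. In *Bdh2*-knockout ASCs it was -0.54, 1.56 and -1.02. By both measures WT replicates 1 and 2 and *Bdh2*-knockout replicate 2 were highest. In the other libraries the mean was below 0, so the sum there rested on a part of the genes. That sum is not a measure of hepatocyte RNA alone. No hepatocyte gene stood at 0 in all 6 libraries, and *Alb* itself averaged 183 CPM in WT ASCs and 38.0 CPM in *Bdh2*-knockout ASCs. Calls of the 10 factors that change without WT replicates 1 and 2 are given with their values below. The label of the cells was checked on 15 other pluripotency markers, all of which also stand in the pathway lists below. They were present in every library at a summed 4481 to 4723 CPM in WT ASCs and 5109 to 5237 CPM in *Bdh2*-knockout ASCs. Of these 15 markers 9 were called higher and 2 lower, beside 21% of all tested genes called higher and 20.8% called lower. With the hepatocyte covariate 5 were higher and 2 lower. Their median log2 fold change (*Bdh2*-knockout over WT) was 0.17, and 0.07 without WT replicates 1 and 2.

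**Figure D1:**
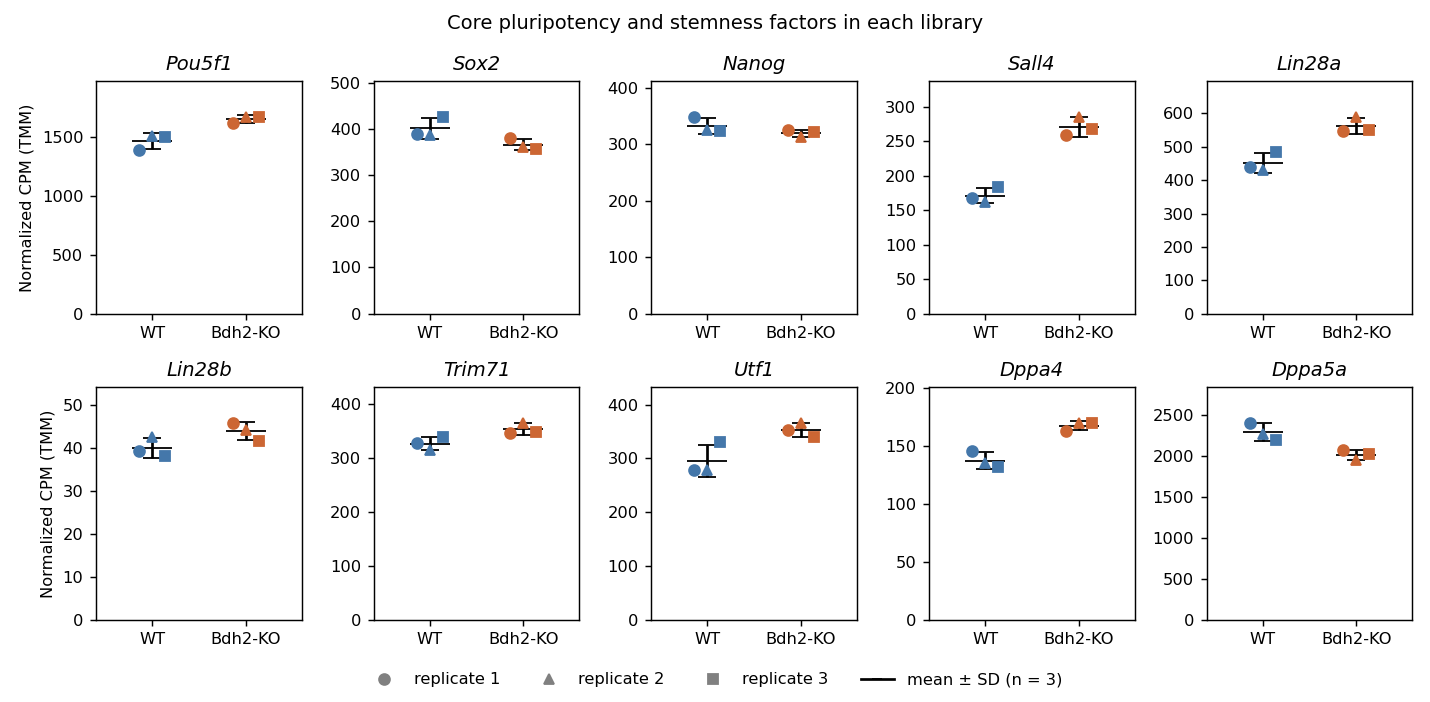
Normalized CPM (vertical axes, from 0) of each of the 10 factors in the 3 WT and 3 *Bdh2*-knockout ASC libraries, with the mean ± SD of each genotype as horizontal lines with bars. The genotypes overlap for *Nanog* and *Lin28b* and not for the other 8 factors, and the separation is widest for *Sall4*.

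All 10 factors were transcribed in both genotypes, and none differed by as much as 2-fold. In *Bdh2*-knockout ASCs, 5 factors rose (*Sall4*, *Lin28a*, *Dppa4*, *Utf1* and *Pou5f1*), 1 fell (*Dppa5a*), and *Sox2*, *Nanog*, *Lin28b* and *Trim71* did not pass the test (edgeR's quasi-likelihood test, Benjamini-Hochberg adjusted p under 0.05 over all 16758 genes). These 6 of 10 stand beside 41.7% of all tested genes called in either direction. The 5 higher stand beside 21% of tested genes called higher, and the 1 lower beside 20.8% called lower. The normalized CPM of 8 factors did not overlap between genotypes, 6 of them higher and 2 lower in the knockout, where 52.4% of all tested genes did not overlap. The median log2 fold change (*Bdh2*-knockout over WT) of the factors was 0.15, beside -0.01 for all tested genes. In absolute size their median was 0.18, below the 0.23 of all tested genes. In bulk RNA, fewer cells of a type and less RNA per cell cannot be told apart.

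The calls near the threshold depend on the libraries. Without WT replicates 1 and 2, an alternative chosen after seeing the data that leaves 1 WT library whose spread is assumed to be that of the knockout, 4 factors rose (*Sall4*, *Lin28a*, *Dppa4* and *Pou5f1*) and *Sox2* was the 1 that fell. Tested against a fold change of 1.2 in place of any change, only *Sall4* passed.

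**Figure D2:**
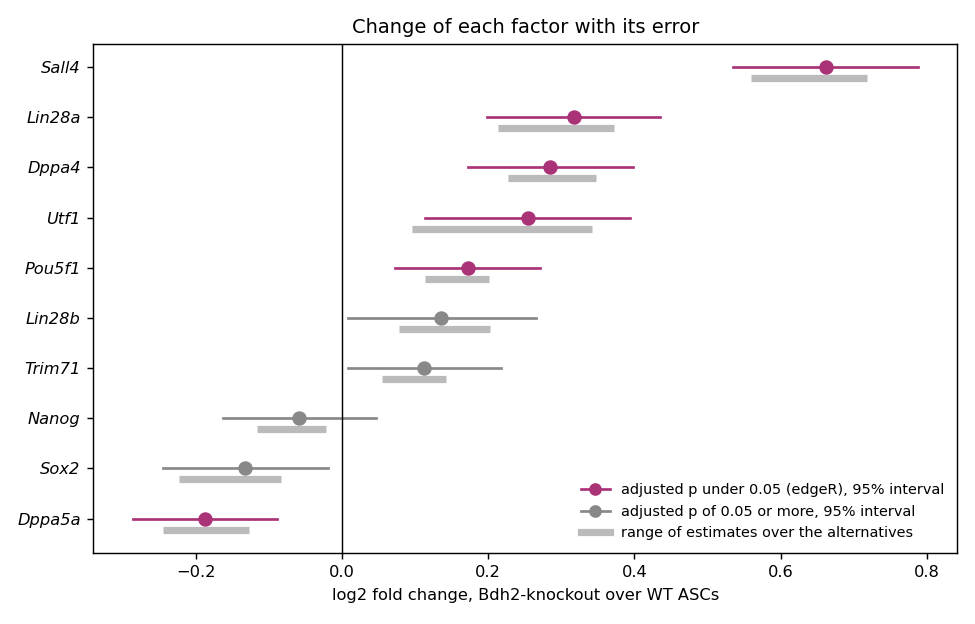
Log2 fold change of each factor (horizontal axis, *Bdh2*-knockout over WT ASCs) with its 95% interval, coloured by whether the adjusted p was under 0.05, above a grey bar for the range of the estimate over 16 alternative analyses. *Sall4* stands apart at 0.66, and no grey bar crosses 0.

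*Sall4* (chr2:168748332-168767943, minus strand), which encodes the zinc finger transcription factor SALL4, had the largest difference. Its normalized level was 168, 162 and 184 CPM in WT ASCs and 259, 286 and 267 CPM in *Bdh2*-knockout ASCs. The lowest knockout library was well above the highest WT library. The log2 fold change was 0.66 (SE 0.06, adjusted p = 2.8e-06, edgeR), a rise of 58.2% with a 95% interval of 44.9% to 72.7%. Of all tested genes, 14% had a larger absolute change. *Sall4* passed the test in 16 of 16 alternatives, and leaving out 1 library at a time gave 0.62 to 0.72. Exons of the antisense transcript *Gm14261*, counted 8 to 31 times, share 9.5% of its exon bases. Whether the libraries mark strand is not given in the sources used here.

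*Pou5f1* (chr17:35506018-35510772, plus strand), the gene of OCT4, had 1387, 1511 and 1503 CPM in WT ASCs and 1617, 1668 and 1674 CPM in *Bdh2*-knockout ASCs. The groups did not overlap, and WT replicate 1 was the lowest of the 6. This gave a log2 fold change of 0.17 (SE 0.05, adjusted p = 0.0088, edgeR), a rise of 12.7% with a 95% interval of 5.2% to 20.6%. With a hepatocyte score as a covariate the estimate was 0.15 and did not pass (adjusted p = 0.091, edgeR), and with libraries scaled by their totals alone it was 0.11 and did not pass (adjusted p = 0.052, edgeR). Whether the GOF/GFP reporter adds reads to *Pou5f1* was not tested.

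*Sox2* (chr3:34650405-34652461, plus strand), whose product binds DNA as the partner of OCT4, had a negative estimate. Its level was 390, 387 and 427 CPM in WT ASCs and 381, 362 and 356 CPM in *Bdh2*-knockout ASCs. All 3 knockout libraries lay below all 3 WT libraries, but WT replicate 2 and knockout replicate 1 were close. The log2 fold change was -0.13 (SE 0.05, adjusted p = 0.058, edgeR), with a 95% interval of -0.25 to -0.02. It passed in 5 of 16 alternatives, among them the hepatocyte covariate, where it was -0.18 (adjusted p = 0.035, edgeR), scaling by library totals, where it was -0.19 (adjusted p = 0.0079, edgeR), and the fit without WT replicates 1 and 2, where it was -0.22 (adjusted p = 0.0077, edgeR). In the other 11 it did not pass, with -0.12 in DESeq2 (adjusted p = 0.073), -0.10 without knockout replicate 3 (adjusted p = 0.24, edgeR) and -0.08 without WT replicate 3 (adjusted p = 0.14, edgeR).

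*Nanog* (chr6:122707489-122714633, plus strand), the homeobox gene of the trio, had 349, 324 and 323 CPM in WT ASCs and 324, 312 and 321 CPM in *Bdh2*-knockout ASCs. The groups overlapped, and WT replicate 1 alone stood above the rest. Its log2 fold change was -0.06 (SE 0.05, adjusted p = 0.36, edgeR). Its 95% interval was -0.16 to 0.05, so a fall of more than 10.7% or a rise of more than 3.3% lay outside it. *Nanog* passed the test in 0 of 16 alternatives, where its estimates ran from -0.12 (library totals, adjusted p = 0.072, edgeR) to -0.02, and 86% of tested genes had a larger absolute change.

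The balance within the trio was measured as ratios within each library, which no scaling of the libraries can change. The 6 ratios reported were chosen after the values were seen. *Pou5f1* exceeded *Sox2* in FPKM (the count scaled by gene length and library total) 3.35 ± 0.193-fold (SD, n = 3) in WT ASCs and 4.14 ± 0.221-fold in *Bdh2*-knockout ASCs, without overlap. The ratio of *Pou5f1* to *Nanog* was 4.42 ± 0.391 in WT ASCs and 5.17 ± 0.182 in *Bdh2*-knockout ASCs, also without overlap. *Nanog* to *Sox2* overlapped between genotypes, at 0.762 ± 0.0634 and 0.80 ± 0.0243. *Sall4* to *Pou5f1* was 0.0474 ± 0.00336 in WT ASCs and 0.0665 ± 0.00275 in *Bdh2*-knockout ASCs, without overlap. A two-sided exact permutation test gave p = 0.1 for each ratio without overlap, the smallest that 3 against 3 allows, and 0.15 after adjustment over the 6 ratios. For *Nanog* to *Sox2* the same exact permutation test gave p = 0.4.

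**Figure D3:**
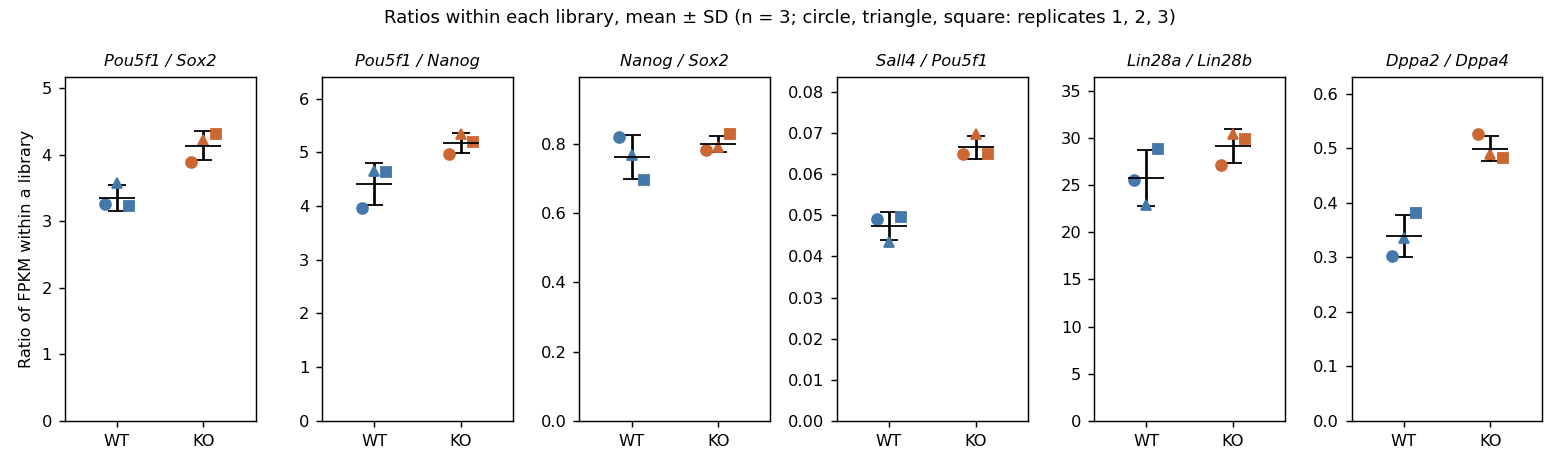
Ratio of the FPKM of 2 genes within each library (vertical axes, from 0) for 6 pairs, with mean ± SD of 3 WT and 3 *Bdh2*-knockout (KO) libraries. The genotypes separate for *Pou5f1* over *Sox2*, *Pou5f1* over *Nanog*, *Sall4* over *Pou5f1* and *Dppa2* over *Dppa4*, and overlap for *Nanog* over *Sox2* and *Lin28a* over *Lin28b*.

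Among the RNA-binding proteins, *Lin28a* rose, while *Lin28b* and *Trim71* had smaller positive differences that did not pass. *Lin28a* (chr4:134003330-134018841, minus strand) had 441, 430 and 485 CPM in WT ASCs and 548, 591 and 550 CPM in *Bdh2*-knockout ASCs. Every knockout library was above every WT library. The log2 fold change was 0.32 (SE 0.06, adjusted p = 5.5e-04, edgeR), a rise of 24.5% with a 95% interval of 14.7% to 35.2%, and it passed in 15 of 16 alternatives, the exception being the test against a fold of 1.2.

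*Lin28b* (chr10:45376620-45486395, minus strand), the paralog of *Lin28a*, was the lowest of the 10 factors. It had 39.3, 42.7 and 38.2 CPM in WT ASCs and 45.9, 44.1 and 41.7 CPM in *Bdh2*-knockout ASCs. WT replicate 2 lay above knockout replicate 3, so the groups overlapped. On the log2 scale the fold change was 0.14 (SE 0.06, adjusted p = 0.083, edgeR), and without WT replicate 2 it was 0.18 (adjusted p = 0.034, edgeR), the 1 alternative of 16 in which it passed. Scaled by library totals it was 0.08 (adjusted p = 0.31, edgeR). Per length, *Lin28a* exceeded *Lin28b* 25.7 ± 3.00-fold in WT ASCs and 29.1 ± 1.78-fold in *Bdh2*-knockout ASCs (SD, n = 3), a difference within the overlap of the libraries (p = 0.2, two-sided exact permutation test).

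*Trim71* (chr9:114507133-114564369, minus strand), the ubiquitin ligase and mRNA repressor whose 3′ UTR held the 4 let-7 matches printed above, had 327, 315 and 339 CPM in WT ASCs and 347, 366 and 349 CPM in *Bdh2*-knockout ASCs. The groups did not overlap, but the gap between WT replicate 3 and knockout replicate 1 was small. The log2 fold change was 0.11 (SE 0.05, adjusted p = 0.078, edgeR). It passed with DESeq2 (0.13, adjusted p = 0.04) and without WT replicate 3 (0.14, adjusted p = 0.019, edgeR), and in none of the other 14 alternatives. Scaled by library totals it was 0.06 (adjusted p = 0.38, edgeR).

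Of the ESC-restricted genes, *Utf1* and *Dppa4* rose and *Dppa5a* fell. *Utf1* (chr7:139943789-139945112, plus strand), which encodes a chromatin-bound protein of undifferentiated cells, had 278, 279 and 330 CPM in WT ASCs and 353, 367 and 340 CPM in *Bdh2*-knockout ASCs. The groups did not overlap, but WT replicate 3 stood close to the knockout. The estimated log2 fold change was 0.25 (SE 0.07, adjusted p = 0.007, edgeR), a rise of 19.2%. With WT replicate 3 as the only WT library it was 0.10 and did not pass (adjusted p = 0.22, edgeR).

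*Dppa4* (chr16:48283733-48294237, plus strand), which binds chromatin as a heterodimer with DPPA2, had 146, 136 and 132 CPM in WT ASCs and 163, 170 and 170 CPM in *Bdh2*-knockout ASCs. The lowest knockout library exceeded the highest WT library. The fit gave a log2 fold change of 0.29 (SE 0.05, adjusted p = 8.3e-04, edgeR), and it passed in 15 of 16 alternatives. The genes of chromosome 16 as a whole were higher in the knockout: their median log2 fold change was 0.19 over 494 tested genes, with 44.7% called higher, while the medians of the other 19 chromosomes lay between -0.07 and 0.02. *Dppa4* stood 0.09 above the chromosome's median, and 39.9% of the tested genes of chromosome 16 had a larger log2 fold change. The study also karyotyped *Bdh2*-knockout ASCs, and those chromosome counts were not used here.

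*Dppa2*, the partner gene, starts 9671 bases from the end of *Dppa4* and differed more. It had 65.0, 66.9 and 73.8 CPM in WT ASCs and 126, 123 and 121 CPM in *Bdh2*-knockout ASCs. Its log2 fold change was 0.84 (SE 0.06, adjusted p = 3.6e-07, edgeR), 0.65 above the chromosome's median, and 4.66% of the chromosome's tested genes exceeded it. The FPKM ratio of *Dppa2* to *Dppa4* was 0.34 ± 0.0389 in WT ASCs and 0.499 ± 0.023 in *Bdh2*-knockout ASCs (SD, n = 3), without overlap. Of the stretches of 50 bases in *Dppa4* transcripts, 35.9% also occur in other genes, mainly the copy *Gm14058*, counted 77 to 200 times, so its count is uncertain where the counting could split reads.

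*Dppa5a* (chr9:78367052-78368177, minus strand) had the highest level of the 10 and was the only one that passed the test as lower. It had 2411, 2275 and 2198 CPM in WT ASCs and 2071, 1953 and 2024 CPM in *Bdh2*-knockout ASCs. All knockout libraries lay below all WT libraries. The log2 fold change was -0.19 (SE 0.05, adjusted p = 0.0056, edgeR), a change of -12.2% with a 95% interval of -18% to -5.9%. It did not pass with the hepatocyte covariate (-0.17, adjusted p = 0.071, edgeR) or without WT replicates 1 and 2 (-0.13, adjusted p = 0.062, edgeR). Other genes share 38.6% of its stretches of 50 bases, so its count too is uncertain.

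**Figure D4:**
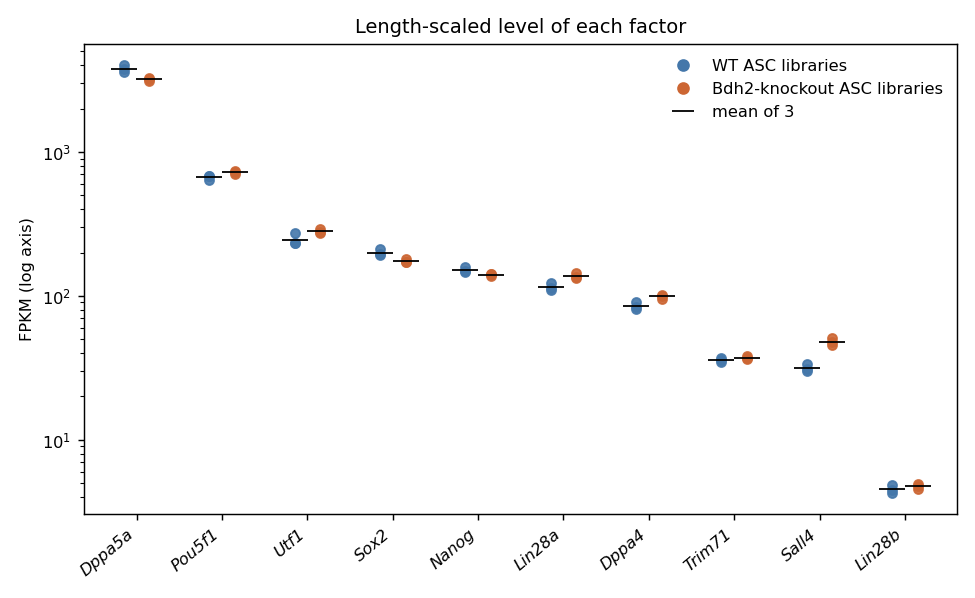
FPKM of each factor on a log axis, ordered by the WT mean, with 3 points per genotype and a black line at their mean. The levels run from 3783 FPKM (*Dppa5a*) to 4.51 FPKM (*Lin28b*) in WT ASCs, and *Sall4* passes *Trim71* in *Bdh2*-knockout ASCs.

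Levels of different genes were compared per length. In WT ASCs the order in FPKM (mean ± SD, n = 3) was *Dppa5a* at 3783 ± 202, *Pou5f1* at 666 ± 28.1, *Utf1* at 246 ± 23.1, *Sox2* at 199 ± 9.97, *Nanog* at 151 ± 7.49, *Lin28a* at 115 ± 6.87, *Dppa4* at 84.6 ± 4.93, *Trim71* at 35.8 ± 1.24, *Sall4* at 31.5 ± 1.92 and *Lin28b* at 4.51 ± 0.273. No neighbours in this order overlapped over the 3 libraries. In *Bdh2*-knockout ASCs *Sall4* stood above *Trim71*, at 47.9 ± 2.60 against 37.2 ± 1.16 FPKM. *Lin28a* at 138 ± 6.05 FPKM overlapped *Nanog* at 139.5 ± 2.68 FPKM there. The other places were the same in both genotypes. By mean FPKM over all 6 libraries *Dppa5a* ranked 5 and *Pou5f1* 55 among the 16758 tested genes, while *Lin28b* ranked 7703.

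The genes that work with these factors were counted from 8 pathway lists, read beside 41.7% of all tested genes called and a median log2 fold change of -0.01. Some genes stand in more than 1 pathway or marker list, so the counts of the lists are not separate results. Of 35 other pluripotency transcription factors, 22 rose and 2 fell, with a median of 0.23. Without WT replicates 1 and 2, 16 rose and 2 fell, with a median of 0.12, and with the hepatocyte covariate 17 rose. The largest were *Foxd3* at 1.73 and *Tcf7l1* at 1.13, both repressors known for the exit from the naïve state, and *Myc* at 0.87 (SE 0.08 each, edgeR). Of 11 factors of the naïve network in this list, chosen after their values were seen, 8 were called higher: *Nr0b1* at 0.67, *Tbx3* at 0.64, *Prdm14* at 0.46, *Klf2* at 0.40, *Nr5a2* at 0.23, *Esrrb* at 0.22, *Klf4* at 0.18 and *Tfcp2l1* at 0.17. *Zfp42* at 0.05, *Stat3* at 0.05 and *Klf5* at -0.04 did not pass. With the hepatocyte covariate *Nr5a2* at 0.20, *Esrrb* at 0.17, *Klf4* at 0.10 and *Tfcp2l1* at 0.14 no longer passed, and these 4 did not pass without WT replicates 1 and 2 either. *Klf4* passed in 8 of 16 alternatives and *Tfcp2l1* and *Nr5a2* in 9 each, losing the call with library totals and without WT replicate 1, WT replicate 2 or knockout replicate 2. Of 47 chromatin and co-regulator partners of OCT4, SOX2 and NANOG, 24 rose and 2 fell, with a median of 0.14. The largest were *Rcor2* at 0.67, a corepressor, *Ogt* at -0.65, the enzyme that adds O-GlcNAc, and *Sfpq* at 0.63, an RNA-binding protein. Scaled by library totals, 17 of the 47 rose and 4 fell, and without WT replicates 1 and 2, 16 rose and 4 fell, with a median of 0.09. The count that fell was 1 with DESeq2 and without knockout replicate 1 or 3.

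Among 34 other ESC-restricted genes and targets of OCT4 and SOX2, 17 rose and 9 fell. The largest were *Lefty2* at -1.42 and *Lefty1* at 0.88, neighbouring inhibitors of NODAL that moved in opposite directions, and *Tex19.1* at 1.23, a germline and pluripotency gene. *Lefty2* was at 136.5 ± 6.95 CPM in WT ASCs and 51.0 ± 3.29 CPM in *Bdh2*-knockout ASCs, and *Lefty1* at 16.6 ± 3.14 and 30.6 ± 1.56 CPM (SD, n = 3). Of 22 tested relatives of the 10 factors in their gene families, 7 rose and 5 fell, and 6 rose and 2 fell without WT replicates 1 and 2, and 3 fell without knockout replicate 3. They were led by the POU gene *Pou3f1* at 1.21, *Dppa2*, and *Sall3*, which went from 18.4 to 42.2 CPM. Of the other *Sall* genes, *Sall1* fell by 0.28 on the log2 scale.

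**Figure D5:**
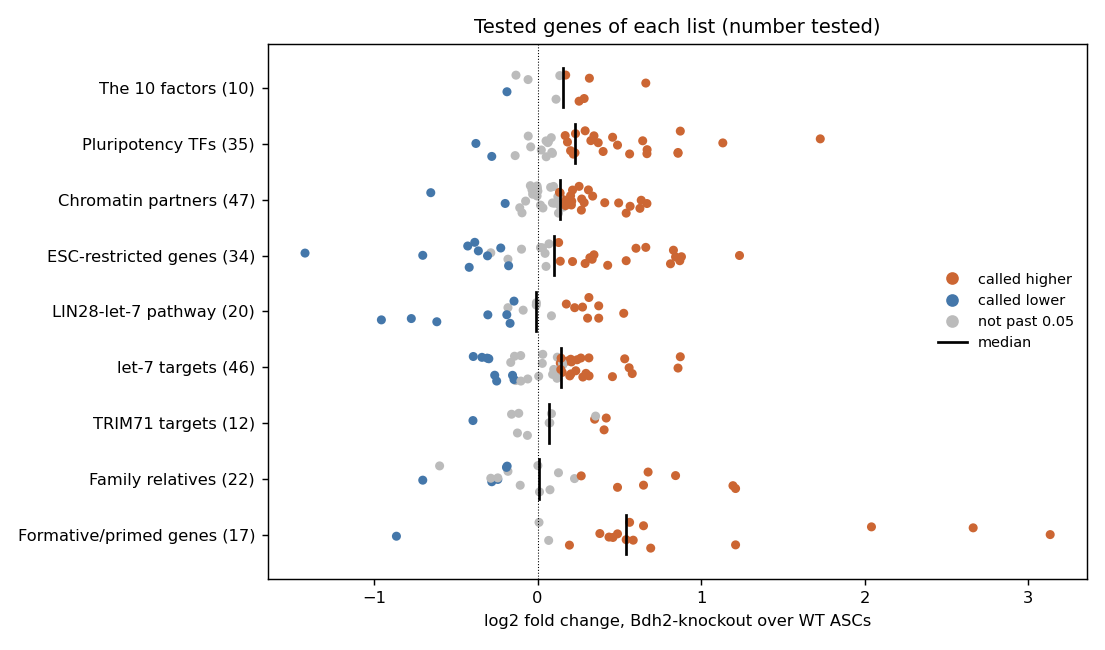
Log2 fold change (horizontal axis, *Bdh2*-knockout over WT ASCs) of every tested gene of the 10 factors and of 8 pathway lists, 1 point per gene, coloured by call, with the list's median as a black line. The 10 factors lie between -0.19 and 0.66, and the formative and primed genes have the highest median, 0.54.

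In the LIN28 and let-7 pathway, 8 of 20 tested genes rose and 7 fell, with a median of -0.01. *Dgcr8*, the partner of Drosha in cutting primary microRNAs, rose by 0.53 and also lies on chromosome 16. *Prkra*, a cofactor of Dicer, was at -0.77, and *Msi1*, an RNA-binding protein that works with LIN28, at -0.62 (each adjusted p under 0.05, edgeR). *Drosha* itself rose by 0.28 and *Dicer1*, itself also listed as a let-7 target, was called lower at -0.14, in 6 of 16 alternatives only. The uridylating enzymes that act on let-7 precursors bound by LIN28A gave -0.19 for *Tut4*, called with overlapping groups, and -0.01 for *Tut7*, not past the test. *Dis3l2*, which degrades those precursors, gave -0.18 and did not pass (adjusted p = 0.057, edgeR). The count that fell rests on single libraries: it was 3 without knockout replicate 1 or 3, 5 without any other single library, and 4 with DESeq2, while 8 or 9 rose in each of these. *Drosha*, *Dicer1*, *Tut4*, *Tut7* and *Dis3l2* were chosen after their values were seen.

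Of 46 tested known or predicted let-7 targets other than the factors, 22 rose and 8 fell, with a median of 0.14, led by *Myc*, *Mycn* at 0.86 and the cyclin gene *Ccnd1* at 0.58. The count depends on the fit: with library totals 14 rose and 11 fell, with the hepatocyte covariate 14 rose and 7 fell, and without WT replicates 1 and 2, 10 rose and 8 fell. *Hmga2*, a chromatin protein gene and the best-known let-7 target, was called at 0.20, and *Igf2bp1* at 0.53 (both chosen after their values were seen). Of 12 tested TRIM71 targets, 3 rose and 1 fell, among them *Dmrt1* at 0.42, *Mbnl1* at 0.41 and *Rbl2* at -0.40. None was called lower with DESeq2, with the hepatocyte covariate, without knockout replicate 1, or without WT replicates 1 and 2, and 2 were with library totals. *Cdkn1a*, a cell cycle inhibitor that TRIM71 represses, had a log2 fold change of -0.06 and did not pass.

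Of 17 formative and primed epiblast genes, 14 rose and 1 fell, with a median of 0.54. *Fgf5*, the standard marker of the primed epiblast, was at 0.438 ± 0.241 CPM in WT ASCs and 4.05 ± 0.155 CPM in *Bdh2*-knockout ASCs. Its WT level is low, beside 0.12 to 0.158 CPM for 3 counts in the WT libraries, so the size of its fold is uncertain. *Pim2*, a kinase gene, was at 24.7 ± 2.32 and 102 ± 6.56 CPM (SD, n = 3). Markers of other cell types were counted too, beside 21% of all tested genes called higher and 20.8% called lower. Of 28 tested primitive endoderm genes 23 rose and 3 fell (1 with DESeq2, without WT replicate 1 or 2 or both, or without knockout replicate 1 or 3), with a summed level of 2245 to 2447 CPM in WT ASCs and 2918 to 3056 CPM in *Bdh2*-knockout ASCs. Among them the log2 fold changes of the transcription factor genes *Gata4*, *Gata6* and *Sox17* were 1.89, 2.02 and 3.00. In mesendoderm genes 8 of 14 rose and 2 fell, and 5 rose without WT replicates 1 and 2, while 0 fell with DESeq2 and 1 without WT or knockout replicate 3. *Cer1* was at 0 in all libraries. Of 9 neural ectoderm genes 33.3% were called, all 3 of them higher, and of 8 fibroblast genes 37.5%, all 3 of them lower. Of 4 two-cell-like genes 25% were called, 1 higher, but 0 with DESeq2, without WT replicate 2 or without knockout replicate 1. Each share lay below the 41.7% called in either direction, but above the share of all tested genes called in its own direction. With any 1 library left out, and tested against a fold of 1.2, 3 neural ectoderm genes were higher and 3 fibroblast genes lower. With library totals or without WT replicate 1, 1 neural ectoderm gene was also lower. In trophectoderm 50% of 10 genes were called, all 5 of them lower, but 2 with DESeq2 or without WT replicate 3 and 3 without WT replicate 2 or any 1 knockout library. Of 21 tested hepatocyte genes 14 were called lower and 1 higher. This count rests on the libraries and the tool: 0 were lower with DESeq2, limma-voom or the hepatocyte covariate, and without WT replicate 1, knockout replicate 1 or knockout replicate 3. It was 3 without WT replicate 2, 19 without knockout replicate 2 and 20 without WT replicate 3, and without WT replicates 1 and 2 together 0 were lower and 0 higher. The part of these cells in the differences of the 10 factors was not tested beyond the hepatocyte covariate.

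Genes whose level followed the trio most closely across the 6 libraries were found by Pearson's r of log2 CPM among 9388 genes, a description with no test, since all points share libraries and genotype. *Pou5f1* was followed by *Rab3gap1* (r = 0.995), *Atp6ap2* and *Ywhaz*, *Sox2* by *Dis3l2* (r = 0.997), *Pgghg* and *Cdca7*, and *Nanog* by *Cyb5r4* (r = 0.995), *Gm10557* and *Zfp266*. With r above 0.9 stood 984 genes for *Pou5f1*, 147 for *Sox2* and 65 for *Nanog*.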

How the data were processed

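RNA of 6 libraries was prepared with the Illumina TruSeq RNA kit. The authors mapped reads to GRCm38 with HISAT2 (2.0.5 per the labels), counted them per gene with FeatureCounts, and deposited raw counts for 54715 genes with lengths and positions. Annotation release, strand setting and the handling of reads with several matches are not given in the sources used here. GENCODE M21 holds 99.4% of the identifiers.

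Counts were fitted in R 4.3.3 with edgeR 4.0.16 (TMM, filterByExpr, glmQLFit, then glmQLFTest on genotype alone, Benjamini-Hochberg over 16758 genes, threshold 0.05). The authors' tool was DESeq2, run in version 1.42.0 as an alternative beside limma-voom (limma 3.58.1). CPM values are normalized by TMM, and FPKM values use gene lengths and library totals. Logs for correlation used CPM + 0.5. On simulated counts of 16758 genes for this comparison edgeR recovered 75 of 100 genes changed 2-fold and 98 of 100 changed by 2 on the log2 scale, with 18 false calls. Changes as small as those of the 10 factors, all below 2-fold, were not simulated. Replicates of a genotype were checked for identical libraries and differed beyond sampling noise (chi-square per gene 4.09 to 9.6).

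The 10 factors and all gene lists were chosen with earlier results of these data known. Named genes are all 10 factors, *Bdh2*, the 3 called genes of each pathway list with the largest change and a mean count of at least 50, the genes listed first in a marker list, the 3 genes most like each of the trio (mean CPM of at least 10), and the exceptions stated. Alternatives covered tool, scaling, filter, block, covariate, threshold and left-out libraries.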

Additional observations from a re-analysis of the deposited data

How the results depend on the processing

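Each of the 10 factors kept its direction in all 16 alternatives. Of 160 estimates, 142 kept their side of the threshold, 10 lost the call and 8 gained it. The count of factors that rose was 4 to 6 in every alternative but the test against a fold of 1.2, where it was 1, with 0 factors lower and 2457 genes called in all. The count that fell was 2 with library totals and with a mean count of at least 50, because *Sox2* passed. Leaving out 1 library at a time gave 5 to 6 factors higher, 1 to 2 lower (2 without WT replicate 2) and 5613 to 7409 genes called. Without WT replicates 1 and 2 together, 4386 genes were called, from fewer samples. With library totals the median of all tested genes moved from -0.01 to -0.07, and 38% of called genes were higher (2731 higher, 4451 lower) in place of 50.3% (3518 higher, 3478 lower). In TPM, which rescales each library to a fixed sum, the mean level of every factor was higher than in FPKM. For *Pou5f1* in WT ASCs it was 1929 TPM against 666 FPKM.

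Replicate numbers could not be shown to pair the samples: deviations of same-numbered libraries correlated at -0.154, 0.0995 and 0.245, and not every library correlated best with its own number. With the replicate block 5 factors were higher and 1 lower, of 6452 genes called, and 3 trophectoderm genes were lower in place of 5.

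The lowest of the 10 factors had 763 counts or more in each library, and the part of counting error in its spread was not measured. The 3 libraries per genotype and the single knockout clone limit the comparison.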
